A study of Mus musculus with 24 samples.

Results

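The 10 astrocyte genes followed here are Slc1a2, Slc1a3, Slc6a11, Aqp4, Gja1, Gfap, Apoe, Clu, Aldh1l1 and S100b, taken by symbol from the table of read counts, where all 10 were found among its 24079 genes. They were measured in 24 RNA-seq libraries of mouse nucleus accumbens (Acb) and dorsal striatum (DS), from wild-type mice and from rpS6 knockin mice, whose ribosomal protein S6 cannot be phosphorylated. By the study's methods the Acb was taken from a more anterior section than the DS, so region and anterior position cannot be told apart. Knockin mice and their wild-type littermates shared a mixed background of C57Bl/6, Sv129 and ICR, included males and females, received no treatment and were pooled within each replicate; the knockin was carried in every cell, so an effect in astrocytes and one reaching them from other cells cannot be told apart. Total RNA (the input of the gradient) and RNA of heavy polysomal fractions were sequenced, which gave 8 groups with 3 replicates each. By the methods a replicate pooled heavy fractions of separate samples, and how its input was pooled is not stated. Below, a lysate means the heavy and total library with the same replicate number.

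Astrocytes are glial cells that clear transmitters and potassium from the extracellular space, exchange water and ions with blood vessels, join into networks through gap junctions and supply neurons with lipids and metabolites. They differ between brain regions, and they are not the cells for which the striatum is usually studied, which are medium spiny neurons. An mRNA in heavy polysomal fractions carries several ribosomes, and a long coding sequence offers room for more of them than a short one.

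Libraries of heavy polysomal fractions held 11109431 to 34703044 reads assigned to genes (median 19862908) and those of total RNA 9280589 to 20259509 (median 14889586). Reads of Bc1, a short RNA of dendrites that encodes no protein, made up 15.2 to 26.1% of total RNA libraries and 0.897 to 3.85% of heavy ones. The 10 astrocyte genes together took from 0.145% of the reads of a library (knockin DS, heavy) to 0.516% (knockin Acb, heavy), and no member had fewer than 168 reads in any library. Levels are given as CPM, read counts relative to library size after TMM scaling, and means are followed by the SD of 3 replicates. Among the markers checked, the summed level of 9 genes of medium spiny neurons was 3952 to 7236 CPM, while the 6 endothelial genes summed to 3.63 to 22.2 CPM, with Tek and Kdr at 0 reads in 6 and 4 of the 24 libraries.

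Per kilobase of transcript, Apoe was the most abundant member in total RNA of the wild-type Acb, at 663 ± 31.9 CPM per kb (n = 3). Clu followed at 231 ± 12.5 and Slc1a2 at 119 ± 19.1 CPM per kb. Slc1a3 (87.7 ± 6.76), S100b (75.9 ± 4.60) and Gja1 (70.9 ± 8.07) stood next to each other, and the libraries of neighbours in this order overlapped. Slc6a11 (36.2 ± 3.84) and Gfap (18.7 ± 1.73) came below them, and Aqp4 (12.6 ± 1.48) and Aldh1l1 (9.84 ± 1.97) were at the bottom, with overlapping libraries. Gfap, which encodes the intermediate filament protein used most often to stain astrocytes, was among the less abundant of the 10 mRNAs in this tissue.

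Both regions were compared first, to see where the astrocyte genes were higher. They were higher in the Acb: in wild-type total RNA 8 of the 10 passed the test, all of them upwards, and the median log2 fold change (Acb over DS) of the 10 was 0.72, against -0.01 over all genes tested. By the quasi-likelihood test of edgeR with an adjusted p (Benjamini-Hochberg) under 0.05, 12.7% of the 15557 genes tested passed in that comparison, and 6.54% of the genes tested passed as higher in the Acb. All 10 members were higher in each Acb library than in each DS library, as were 14.3% of genes with at least 50 reads. In total RNA of knockin mice 7 members passed, all higher (background 10.9%, higher 4.84%), with a median of 0.61, and 6 did not overlap between regions (background 12.4%). In heavy fractions 6 members passed in wild-type mice, all higher (background 8.15%, higher 4.72%), with a median of 0.73 and 6 that did not overlap (background 16.5%). In heavy fractions of knockin mice 8 passed, of which 7 were higher (background 18.6%, higher 7.89%), the median was 0.82, and 8 lay higher in every Acb library (background 20.1%). The exception was S100b, which was lower there. With all 24 libraries in one fit, the calls in total RNA of Aqp4 (wild-type), Slc1a2 (knockin) and S100b (both genotypes) were lost, at edgeR adjusted p of 0.080 to 0.42.

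**Figure D1:**
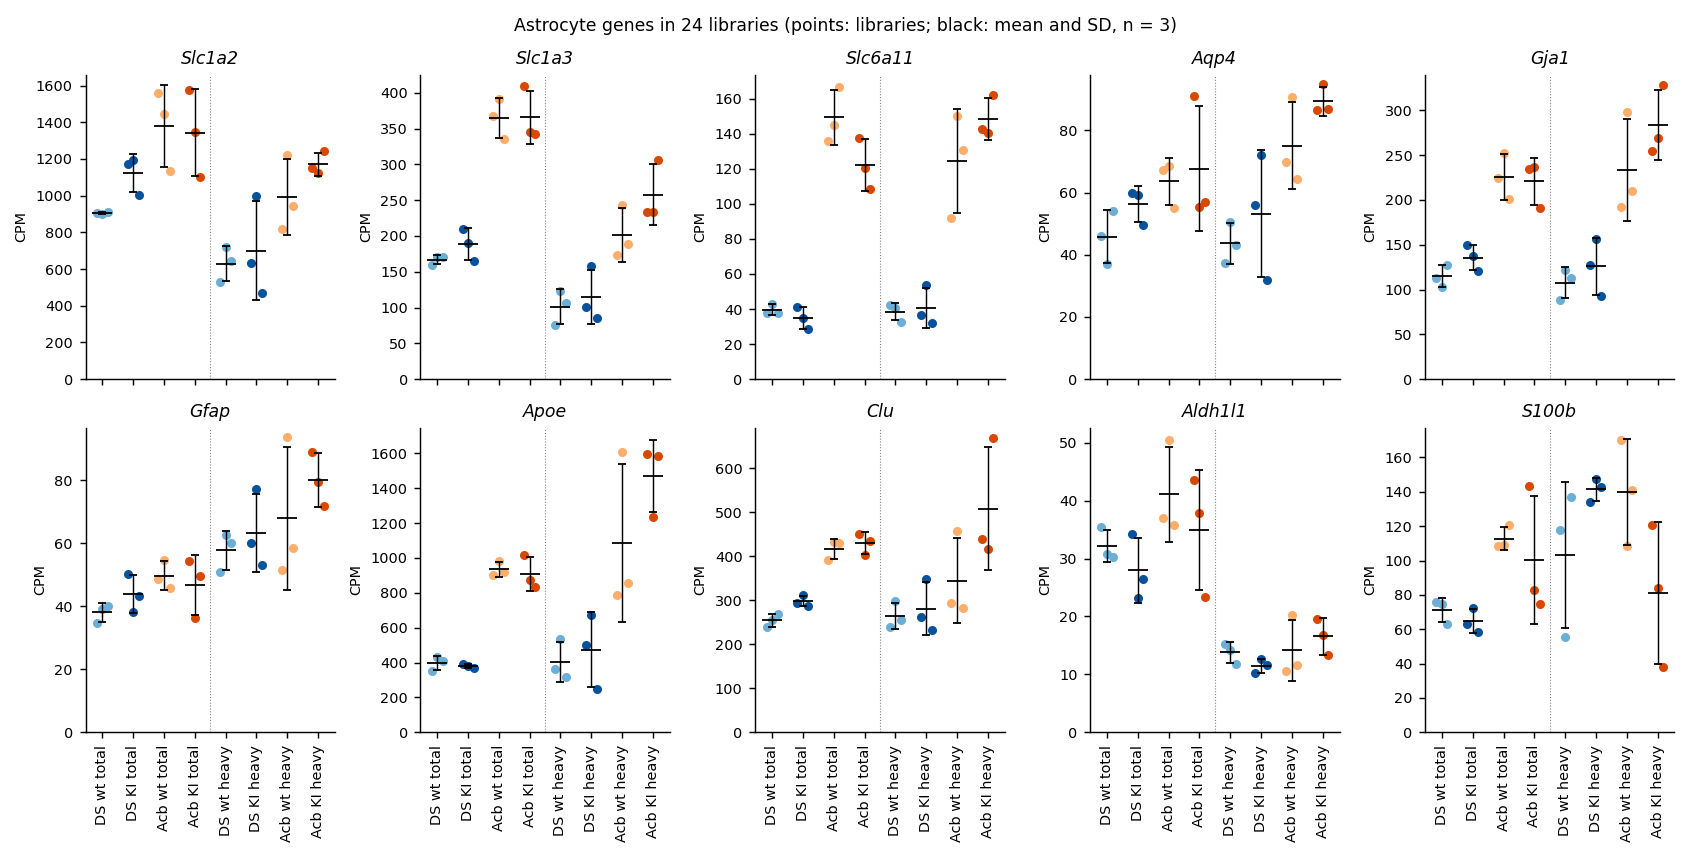
Level of each astrocyte gene (CPM, vertical axis from 0) in the 24 libraries, by region, genotype (wt, wild type; KI, rpS6 knockin) and kind of RNA (total left of the dotted line, heavy right of it); points are libraries, black bars the mean and SD of 3. Slc6a11 lies between 28.4 and 53.6 CPM in all DS libraries and between 92.1 and 167 CPM in all Acb libraries.

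Among the transporters, Slc6a11 (Entrez 243616, chr6:114131241-114249952, plus strand, GRCm38), which encodes the GABA transporter GAT3, differed most. Its level in wild-type total RNA was 136, 145 and 167 CPM in the Acb against 37.7, 43.1 and 37.6 CPM in the DS. In heavy fractions of wild-type mice it was 92.1, 150.1 and 131 CPM in the Acb and 42.4, 40.5 and 32.8 CPM in the DS. No Acb library reached down to the DS, in either genotype. The level in the Acb was 3.86-fold higher in wild-type total RNA (log2 1.95 ± 0.14 SE, edgeR adjusted p = 3.9e-14) and 3.24-fold higher in wild-type heavy fractions (log2 1.70 ± 0.20, adjusted p = 3.3e-05). In knockin mice it was 3.57-fold higher in total RNA and 3.70-fold higher in heavy fractions.

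Slc1a3 (Entrez 20512, chr15:8634124-8710764, minus strand), which encodes the glutamate transporter GLAST, had 368, 392 and 336 CPM in total RNA of the wild-type Acb and 159.8, 171 and 171 CPM in that of the DS. It was higher in the Acb in all 4 comparisons, by 0.98 to 1.19 on the log2 scale, with edgeR adjusted p from 2.6e-10 to 0.0032. Slc1a2 (Entrez 20511, chr2:102658659-102790784, plus strand) encodes GLT-1, the main glutamate transporter of the forebrain. It had 1561, 1447 and 1133 CPM in total RNA of the wild-type Acb and 905, 900.2 and 912 CPM in that of the DS (log2 fold change 0.64 ± 0.10, edgeR adjusted p = 1.5e-05). In knockin total RNA its 3 Acb libraries (1577, 1346 and 1103 CPM) overlapped those of the DS (1173, 1197 and 1004 CPM), and the call there (log2 0.28 ± 0.09, adjusted p = 0.049) was lost without either of Acb replicates 1 and 2 or any of the 3 DS replicates, where it ranged from 0.16 to 0.33, and with edgeR's filterByExpr in place of the filter on summed reads (0.28, adjusted p = 0.078). In heavy fractions Slc1a2 was higher in the Acb by 0.67 ± 0.17 in wild-type and 0.76 ± 0.21 in knockin mice on the log2 scale (edgeR adjusted p = 0.022 and 0.013); without wild-type Acb replicate 2 or 3 or DS replicate 1 or 3, and without knockin DS replicate 1 or 3, the adjusted p was 0.052 to 0.13. The call in wild-type heavy fractions was also lost without a trend on transcript length (0.53, adjusted p = 0.060).

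Gja1 (Entrez 14609, chr10:56377330-56402513, plus strand), the gene of the gap junction protein connexin 43, had 224, 252 and 201 CPM in total RNA of the wild-type Acb and 113, 103 and 128 CPM in that of the DS. The regions did not overlap in any of the 4 comparisons, and the log2 fold change was 1.01 ± 0.13 and 0.73 ± 0.12 in total RNA of wild-type and knockin mice and 1.12 ± 0.19 and 1.19 ± 0.20 in their heavy fractions. The edgeR adjusted p ranged from 9.1e-08 to 0.0010. Aqp4 (Entrez 11829), which encodes the water channel of astrocytic end-feet, had 67.1, 68.6 and 55.0 CPM in total RNA of the wild-type Acb and 46.1, 37.2 and 54.1 CPM in that of the DS, so that the lowest Acb library lay just above the highest DS library. It passed in 3 comparisons (log2 0.51 ± 0.17, 0.79 ± 0.19 and 0.76 ± 0.23) and not in knockin total RNA (0.30 ± 0.17, edgeR adjusted p = 0.33). Each of those 3 calls was lost on leaving out 1 of several libraries (wild-type total, replicate 1 or 2 of either region; wild-type heavy, Acb replicate 2 or DS replicate 1 or 3; knockin heavy, Acb replicate 2 or DS replicate 3), with log2 fold changes of 0.38 to 0.76.

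The secreted apolipoproteins were both higher in the Acb. Apoe (Entrez 11816, chr7:19696109-19699188, minus strand), the main lipid carrier of the brain, had 900.2, 985 and 917 CPM in total RNA of the wild-type Acb and 352, 431 and 408 CPM in that of the DS. The difference was 2.40-fold in wild-type and 2.43-fold in knockin total RNA (log2 1.26 ± 0.11 and 1.28 ± 0.09, edgeR adjusted p = 2.7e-12 and 8.8e-14). In heavy fractions the replicates lay further apart, at 789, 1606 and 857 CPM in the wild-type Acb and 245 to 672 CPM in the knockin DS, and the regions still did not overlap (log2 1.43 ± 0.25 and 1.66 ± 0.25). Clu (Entrez 12759, chr14:65968483-65981547, plus strand), which encodes clusterin, was higher by 0.74 ± 0.11 and 0.55 ± 0.10 on the log2 scale in total RNA of wild-type and knockin mice. In heavy fractions it was higher by 0.87 ± 0.20 in knockin mice, while in wild-type mice 283, 294 and 457 CPM in the Acb overlapped 240.3, 255 and 298 CPM in the DS (log2 0.39 ± 0.18, edgeR adjusted p = 0.24).

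Gfap (Entrez 14580, chr11:102887336-102900912, minus strand) and Aldh1l1 (Entrez 107747, chr6:90486427-90600203, plus strand), which encodes a folate enzyme used as a marker of the whole astrocyte population, passed in none of the 4 comparisons. Gfap had 48.5, 54.7 and 45.7 CPM in total RNA of the wild-type Acb and 34.7, 39.1 and 40.2 CPM in that of the DS, with a log2 fold change of 0.41 ± 0.17 (edgeR adjusted p = 0.12), and 0.12 to 0.35 in the other comparisons. Aldh1l1 had a log2 fold change of 0.38 ± 0.19 in wild-type total RNA (adjusted p = 0.22) and of 0.04 to 0.55 in the others. At these depths Aldh1l1 had 168 to 677 reads in a library, the lowest of the 10. S100b, which encodes a small calcium-binding protein, was higher in total RNA of the Acb in wild-type (log2 0.69 ± 0.14, edgeR adjusted p = 0.00030) and knockin mice (0.66 ± 0.17, adjusted p = 0.0056), and the second of these fell to 0.32 (adjusted p = 0.24) without knockin Acb replicate 1.

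**Figure D2:**
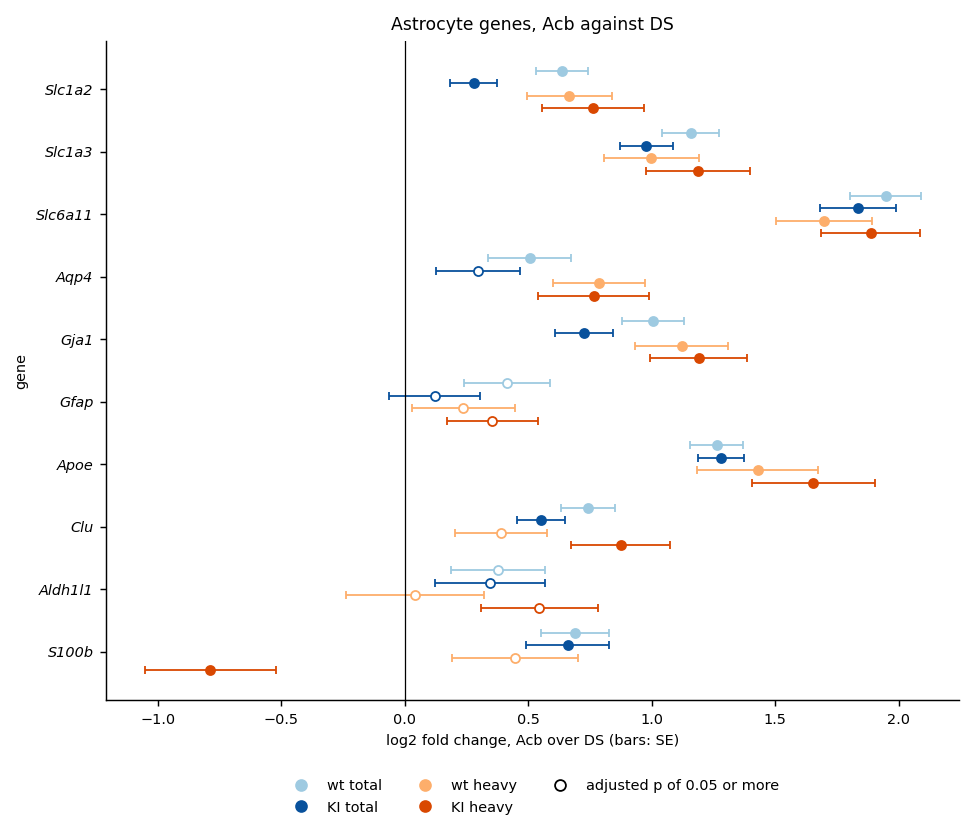
Log2 fold change (Acb over DS, horizontal axis) of each astrocyte gene with its SE from edgeR, in total RNA and heavy fractions of wild-type (wt) and rpS6 knockin (KI) mice; filled points have an adjusted p under 0.05. Slc6a11 lies furthest to the right, at 1.70 to 1.95, and S100b in knockin heavy fractions, at -0.79, is the only point below 0.

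Most of a further 89 genes known from astrocytes, in 5 lists by role, that passed the test were also higher in the Acb. In wild-type total RNA 47 of the 89 were higher and 2 lower (median log2 fold change 0.59), where 6.54% of all genes were higher, and in wild-type heavy fractions 31 were higher and 1 lower (median 0.51), where 4.72% of all genes were higher. Knockin mice had 36 higher and 2 lower in total RNA (median 0.49; 4.84% of all genes higher) and 42 higher and 5 lower in heavy fractions (median 0.66; 7.89%). The membrane transporters and channels contributed 14 of 18 in wild-type total RNA, among them Mlc1 (log2 1.33 ± 0.15) and the potassium channel gene Kcnj16 (1.35 ± 0.28). Of the secreted proteins 13 of 18 were higher, with Sparc, a matricellular protein that opposes synapse assembly, at 2.70 ± 0.14 and Itih3 at 2.48 ± 0.29. Of the receptors 10 of 19 were higher, led by P2ry1, a purinergic receptor, at 2.22 ± 0.29 and Ptprz1 at 1.70 ± 0.15, and the adenosine receptor gene Adora1, which neurons express too, was lower (-0.55 ± 0.12). Of 18 metabolic genes 6 were higher, with the fatty acid binding protein gene Fabp7 at 1.22 ± 0.22, and of 16 nuclear and cytoskeletal genes 4 were higher and the transcription factor gene Nfib was lower (-1.12 ± 0.14). Each of these values had an edgeR adjusted p under 0.05 over all genes tested. Among 29 genes reported as induced in reactive astrocytes, 24 were tested in wild-type total RNA and 2 were higher, Amigo2 and Vim, a share close to the 6.54% of all genes.

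Markers of other cells moved with the region too, and their part in these differences was not tested. Of 9 genes of medium spiny neurons, 2 were higher and 4 lower in the Acb in wild-type total RNA (median log2 fold change -0.30). All 5 genes of cortical excitatory neurons (Slc17a7 among them) were lower in the Acb in each comparison (median log2 fold change -3.66 in wild-type total RNA), and summed to 64.4 to 208 CPM in the 12 Acb libraries and 738 to 1002 CPM in the 12 DS libraries. Of 7 microglial genes 6 were higher in wild-type total RNA, and their sum was 171 to 341 CPM in the Acb and 105 to 237 CPM in the DS. The 7 oligodendrocyte genes summed to 3015 to 5852 CPM against 2719.7 to 4934 CPM, with 4 higher in wild-type total RNA, and the 3 genes of oligodendrocyte precursors to 56.3 to 119 CPM against 27.1 to 66.4 CPM. Genes of tissue along the ventricle were low. The sum of 5 choroid plexus genes was 28.8 to 74.6 CPM in the Acb against 11.1 to 20.0 CPM in the DS. Of these, Folr1, Kcnj13 and Ttr were at 0 reads in 18, 16 and 4 of the 24 libraries. Singly, the 4 choroid genes tested in knockin heavy fractions had a median log2 fold change of -0.09, with 2 positive. The sum was 13.5 to 47.1 against 4.46 to 20.9 CPM for 4 ependymal genes, which overlapped, and 113 to 152 against 58.8 to 89.6 CPM for 5 genes of the subventricular zone. In these bulk samples more astrocytes and more RNA of these genes per astrocyte cannot be told apart.

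Heavy polysomal fractions were then compared with total RNA, to see how the members differed in polysome loading. Aldh1l1 and Slc1a3 passed the test of edgeR as lower in heavy fractions in all 4 groups of mice, Slc1a2 passed as lower in 3 of them, and Gfap as higher in 3. In the wild-type Acb 3 members passed, all lower (25.9% of 16043 genes passed), and the median log2 fold change (heavy over total) was -0.16, with 4 values above 0 and 6 below. In the knockin Acb 4 passed, 2 lower and 2 higher (background 17.2%, median 0.24). In the wild-type DS 4 passed, 3 lower and 1 higher (background 24.3%, median -0.05), and in the knockin DS 5 passed, 3 lower and 2 higher (background 28.6%, median -0.12). The medians over all genes were 0.02 to 0.04.

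Aldh1l1 had 37.0, 50.5 and 35.7 CPM in total RNA of the wild-type Acb and 10.6, 20.2 and 11.6 CPM in heavy fractions of the same lysates. In the wild-type DS it had 35.4, 30.8 and 30.4 CPM in total RNA and 15.3, 14.2 and 11.8 CPM in heavy fractions. The level was lower in the heavy fraction of each of the 12 lysates, by 0.81 to 1.80 on the log2 scale. The fitted log2 fold change was -1.60 ± 0.24 in the wild-type Acb, -1.10 ± 0.25 in the knockin Acb, -1.23 ± 0.23 in the wild-type DS and -1.32 ± 0.24 in the knockin DS, with edgeR adjusted p from 1.2e-05 to 0.0026. Slc1a3 was lower in 12 of 12 lysates as well, with fitted changes of -0.91 ± 0.15, -0.52 ± 0.16, -0.72 ± 0.17 and -0.75 ± 0.16 in the same order. Its call in the knockin Acb (edgeR adjusted p = 0.026) was lost without total replicate 1 or 2 or heavy replicate 1 or 2, at log2 values of -0.45 to -0.59. Slc1a2 was lower in 11 of 12 lysates and passed in the wild-type Acb (-0.53 ± 0.15), the wild-type DS (-0.52 ± 0.14) and the knockin DS (-0.72 ± 0.15), with edgeR adjusted p of 0.010, 0.0051 and 7.5e-05. The first of these was lost without total replicate 1 or 2 or heavy replicate 1 (log2 -0.40 to -0.49), and the call in the knockin DS was lost with DESeq2 (adjusted p = 0.077). In the knockin Acb the log2 fold change of Slc1a2 was -0.22 ± 0.15 (adjusted p = 0.36).

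Gfap was higher in the heavy fraction of each of the 12 lysates, by 0.08 to 1.13 on the log2 scale. It had 54.5, 36.2 and 49.7 CPM in total RNA of the knockin Acb and 88.9, 79.4 and 71.8 CPM in heavy fractions, which did not overlap. The fitted log2 fold change was 0.75 ± 0.19 there, 0.61 ± 0.18 in the wild-type DS and 0.49 ± 0.17 in the knockin DS (edgeR adjusted p = 0.0067, 0.014 and 0.024), and 0.40 ± 0.19 in the wild-type Acb (adjusted p = 0.13). These 3 calls were each lost without 1 library, namely knockin Acb total replicate 2 (0.57), wild-type DS total replicate 1 or heavy replicate 3 (0.54 and 0.58), and knockin DS total replicate 2 or 3 or heavy replicate 2 (0.34 to 0.51); the last was also lost without a trend on transcript or coding length (0.43 for both). Apoe was higher in heavy fractions of the knockin Acb (1594, 1234 and 1584 CPM against 1015, 875 and 831 CPM, log2 0.68 ± 0.15, edgeR adjusted p = 0.0023; 0.40, adjusted p = 0.060, without a trend on coding length), and its other values were 0.03 to 0.28. The value in the knockin DS, 0.28, became 0.59 and passed (adjusted p = 0.00016) without heavy replicate 3. Clu, Gja1, Aqp4 and Slc6a11 passed in none of the 4 comparisons, with log2 fold changes between -0.33 and 0.38. Some of these passed when 1 library was left out: without heavy replicate 2 of the wild-type Acb, Clu (-0.59) and Slc6a11 (-0.48) passed as lower and S100b (0.41) as higher, without heavy replicate 1 of that group Gfap (0.56) passed as higher, and without total replicate 1 of the knockin Acb Aqp4 (0.63) passed as higher. S100b in the wild-type DS passed (0.83, edgeR adjusted p = 7.4e-05) without heavy replicate 2. Without a trend on transcript length, Clu passed as lower in the wild-type Acb (-0.59) and the knockin DS (-0.43), and without one on coding length in the wild-type Acb (-0.41). With the lysate as a block, which pairs heavy and total RNA by replicate number, Clu in the wild-type Acb (log2 -0.36, edgeR adjusted p = 0.048) and S100b in the wild-type DS (0.45, adjusted p = 0.044) passed as well.

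**Figure D3:**
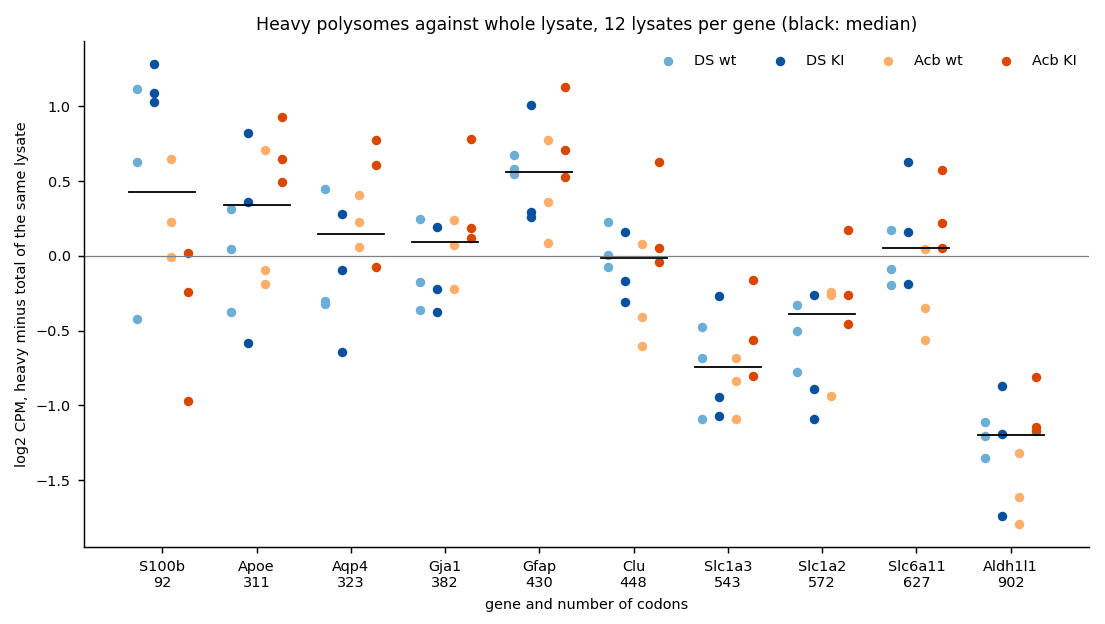
Difference in log2 CPM between the heavy polysomal fraction and total RNA of the same lysate (vertical axis) for each astrocyte gene, ordered by the number of codons given under its symbol. Points are the 12 lysates (heavy and total library with the same replicate number), 3 for each region and genotype, and black lines the medians. All 12 points of Aldh1l1 and Slc1a3 lie below 0 and all 12 of Gfap above it, while those of S100b spread from -0.97 to 1.28.

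The members differ widely in the length of what they encode. Aldh1l1 has 902 codons, Slc6a11 627, Slc1a2 572 and Slc1a3 543, while Clu has 448, Gfap 430, Gja1 382, Aqp4 323 and Apoe 311. S100b (Entrez 20203, chr10:76253853-76261159, plus strand, 3 exons) has 92 codons, and 1.31% of 11657 expressed genes have a shorter coding sequence. Its coding sequence of 279 bases, the shortest of the members, is printed 5′ to 3′ from GRCm38, with the start and stop codons in capitals.
S100b: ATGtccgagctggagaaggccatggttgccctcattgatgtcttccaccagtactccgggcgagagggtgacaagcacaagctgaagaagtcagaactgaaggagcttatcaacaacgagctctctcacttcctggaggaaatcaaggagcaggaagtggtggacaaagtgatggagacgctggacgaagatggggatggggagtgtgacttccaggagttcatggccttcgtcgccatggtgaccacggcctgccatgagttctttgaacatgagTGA
Across the 10 members, the log2 fold change of heavy over total RNA and the coding length had a Spearman's rho of -0.78 in the wild-type Acb, -0.48 in the knockin Acb, -0.59 in the wild-type DS and -0.68 in the knockin DS, and across the 89 other astrocyte genes one of -0.73, -0.68, -0.70 and -0.72. Longer coding sequences thus went with lower values. The rho over all genes was not computed, so whether the trend is particular to astrocyte genes is not known. These are descriptions across genes, which share the same libraries and are not independent replicates. When the trend of counts with transcript length was taken out of the libraries, Slc1a2, whose transcript of 11595 bases is the longest of the 10, turned to 0.082, 0.16 and 0.086 in the 3 groups where it had passed, and passed in none of them. With the trend on coding length taken out instead, Slc1a2 still passed as lower in all 3 of these groups. Aldh1l1 and Slc1a3 passed in all 4 groups with either trend taken out.

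The 89 other astrocyte genes also moved both ways between heavy and total RNA, with 18 higher and 18 lower in the wild-type Acb, 15 and 10 in the knockin Acb, 15 and 13 in the wild-type DS and 16 and 20 in the knockin DS, beside backgrounds in either direction of 25.9%, 17.2%, 24.3% and 28.6% of all genes. Among those higher in heavy fractions of both regions of wild-type mice were Cst3, which encodes the secreted protease inhibitor cystatin C (log2 1.04 ± 0.15 in the Acb and 1.24 ± 0.16 in the DS), Fabp7 (1.20 ± 0.17 and 1.52 ± 0.22) and the claudin gene Cldn10 (0.98 ± 0.18 and 1.18 ± 0.24). Among those lower in both were Pygb, which encodes a glycogen phosphorylase (-1.46 ± 0.15 and -1.14 ± 0.17), and Phgdh, the first enzyme of serine synthesis (-0.98 ± 0.20 and -1.23 ± 0.19).

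The genotypes were compared to see whether the lack of rpS6 phosphorylation went with a change of the astrocyte genes, and none of the 10 passed the test of edgeR in any of the 4 comparisons. Few genes did: 0.0065% in total RNA of the Acb, 0% in its heavy fractions, 0.122% in total RNA of the DS and 0.044% in its heavy fractions. At an unadjusted p under 0.05, 1 member passed in total RNA of the Acb (background 2.95%), 4 in its heavy fractions (21.7%), 2 in total RNA of the DS (9.07%) and 1 in its heavy fractions (6.42%). DESeq2 called 0 members in total RNA and 0 in heavy fractions of the Acb, 1 in total RNA of the DS and 0 in heavy fractions of the DS. It called 0.0065%, 9.89%, 2.02% and 0.249% of the 15391, 9620, 4712 and 6034 genes for which it gave an adjusted p. A member to which DESeq2 gave no adjusted p counts as not called, here and below. The 1 member called was Slc1a2, with 905, 900.2 and 912 CPM in wild-type and 1173, 1197 and 1004 CPM in knockin total RNA of the DS (edgeR log2 0.29 ± 0.08, adjusted p = 0.15, and DESeq2 0.30, adjusted p = 0.015). Slc1a2 and Clu were the 2 members whose genotypes did not overlap in total RNA of the DS (background 15%), and in total RNA of the Acb (7.86%), its heavy fractions (29.1%) and heavy fractions of the DS (11.7%) there were 0.

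In heavy fractions of the Acb 9 of the 10 members had a positive log2 fold change (knockin over wild type), with a median of 0.29 against 0.01 over all genes, and S100b a negative one. Of the 89 other astrocyte genes 57 were positive there, with a median of 0.14, and at an unadjusted p under 0.05 there were 15 higher and 9 lower. The 7 oligodendrocyte genes had a median of -0.43, with 4 lower and 1 higher at an unadjusted p under 0.05, and their part in the members' values was not tested. Clu had 294, 457 and 283 CPM in wild-type and 439, 417 and 670.2 CPM in knockin mice (log2 0.60 ± 0.21, edgeR adjusted p = 0.14). Apoe had 789, 1606 and 857 CPM in wild-type and 1594, 1234 and 1584 CPM in knockin mice (0.48 ± 0.22, adjusted p = 0.22). In both genes wild-type replicate 2 lay within or above the knockin libraries. The same library was the highest of its group for 9 of the 10 members, all but S100b. In other groups, knockin DS heavy replicate 2 was the highest for all 10 and knockin Acb total replicate 1 for 9. Slc1a3 was at 0.40 ± 0.18 (adjusted p = 0.21), and the other members lay between 0.27 and 0.32 with adjusted p of 0.32 to 0.56. In total RNA of the Acb the members had log2 fold changes of -0.29 to 0.09 (median -0.05, 2 positive). In total RNA of the DS they had -0.22 to 0.29 (median 0.17, 6 positive). Heavy fractions of the DS had -0.25 to 0.46 (median 0.18), and 9 of the 10 were positive there as well, all but Aldh1l1. The members share these libraries, so their signs are not independent of each other.

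**Figure D4:**
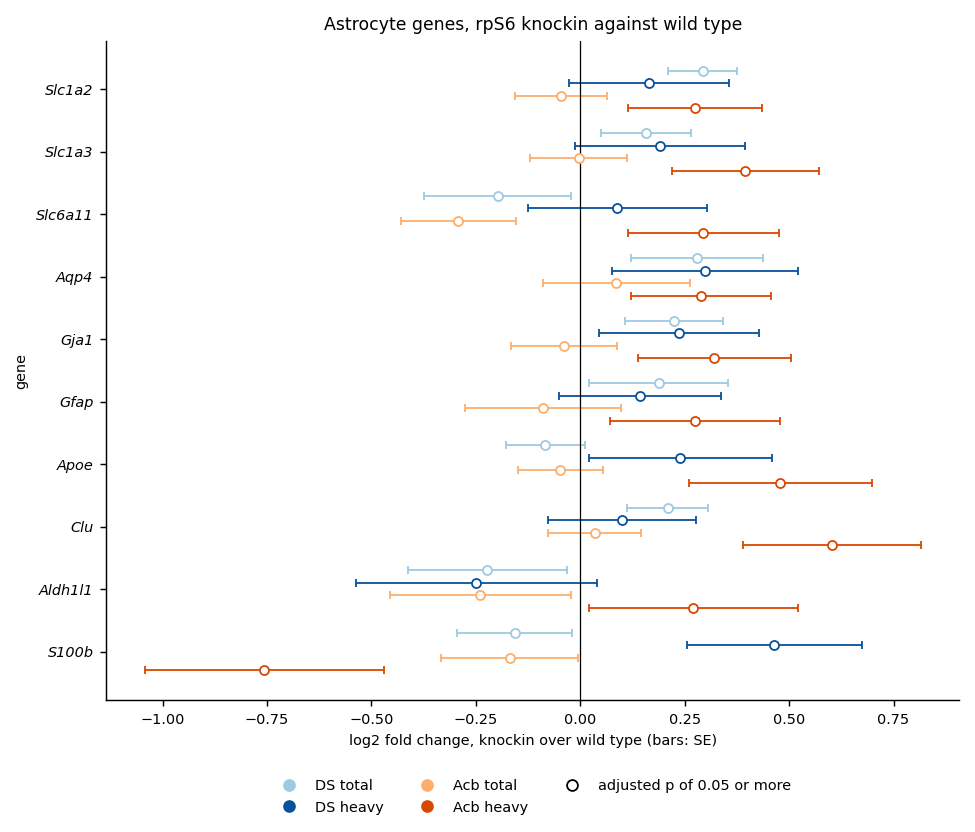
Log2 fold change (rpS6 knockin over wild type, horizontal axis) of each astrocyte gene with its SE from edgeR, in total RNA and heavy fractions of the DS and the Acb; open points have an adjusted p of 0.05 or more, and all 40 are open. In heavy fractions of the Acb 9 genes lie at 0.27 to 0.60 and S100b at -0.76.

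Differences between genotypes in polysome loading were tested as an interaction between genotype and fraction (heavy or total). None of the 10 members passed the test of edgeR in the Acb (background 0%) or the DS (0%). In the Acb 3 members had an unadjusted p under 0.05 (11.9% of all genes), namely Slc6a11 (log2 0.58 ± 0.23), Clu (0.57 ± 0.24) and Apoe (0.52 ± 0.25). DESeq2 called none of the members there (0.0968% of the 3099 genes for which it gave an adjusted p). In the DS 1 member, S100b, had an unadjusted p under 0.05 (4.9% of all genes; log2 0.59 ± 0.26), and DESeq2 called 0 (0%). The edgeR adjusted p of the members were 0.32 to 0.81 in the Acb and 0.9999 in the DS.

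S100b had the pattern least like that of the other members. In heavy fractions it had 170.1, 108 and 141 CPM in the wild-type Acb, 121, 84.1 and 38.0 CPM in the knockin Acb, 118, 55.6 and 137 CPM in the wild-type DS and 134, 148 and 143 CPM in the knockin DS. The 3 knockin DS libraries lay close together and above all 3 of the knockin Acb, and the other groups overlapped. In the knockin DS it was 2.13-fold higher in heavy than in total RNA (63.1, 72.4 and 58.6 CPM; log2 1.09 ± 0.15, edgeR adjusted p = 3.4e-08), whereas in the knockin Acb the log2 fold change was -0.34 ± 0.27 (adjusted p = 0.44). Over 14 alternatives the knockin DS value passed in all 14, but its size ranged from 0.41 to 1.18 on the log2 scale. Between the regions S100b was lower in the Acb in heavy fractions of knockin mice (log2 -0.79 ± 0.27, edgeR adjusted p = 0.043), the only member that was lower in the Acb. That call was lost without Acb replicate 2 or 3 or any of the DS replicates (-0.45 to -0.82, adjusted p = 0.071 to 0.12), with DESeq2 (adjusted p = 0.22), without a trend on transcript length (adjusted p = 0.066), and without one on coding length, where the value turned to 0.15. The genotypes differed by -0.76 ± 0.29 in the Acb and 0.46 ± 0.21 in the DS on the log2 scale (edgeR adjusted p = 0.15 and 0.77).

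The interaction of genotype and region in heavy fractions was -1.21 ± 0.40 for S100b on the log2 scale (edgeR unadjusted p = 0.0062, adjusted p = 0.18). None of the 10 members passed there by edgeR (background 0.00592%) or by DESeq2 (2% of the 8044 genes for which it gave an adjusted p). S100b was the 1 member with an unadjusted p under 0.05 by edgeR (13.8% of all genes). Of other genes of small S100 proteins in the lists, in heavy fractions of knockin mice S100a1 (-0.75 ± 0.24), S100a16 (-0.70 ± 0.23) and S100a10 (-1.50 ± 0.27) were lower in the Acb with edgeR adjusted p of 0.032, 0.034 and 0.00052. S100a10 was lower in wild-type heavy fractions as well (-0.97 ± 0.23), and S100a1 was higher in the Acb in wild-type total RNA (1.12 ± 0.18). The settings under which the S100b call between regions was lost or reversed were tried on the members only, not on these genes.

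**Figure D5:**
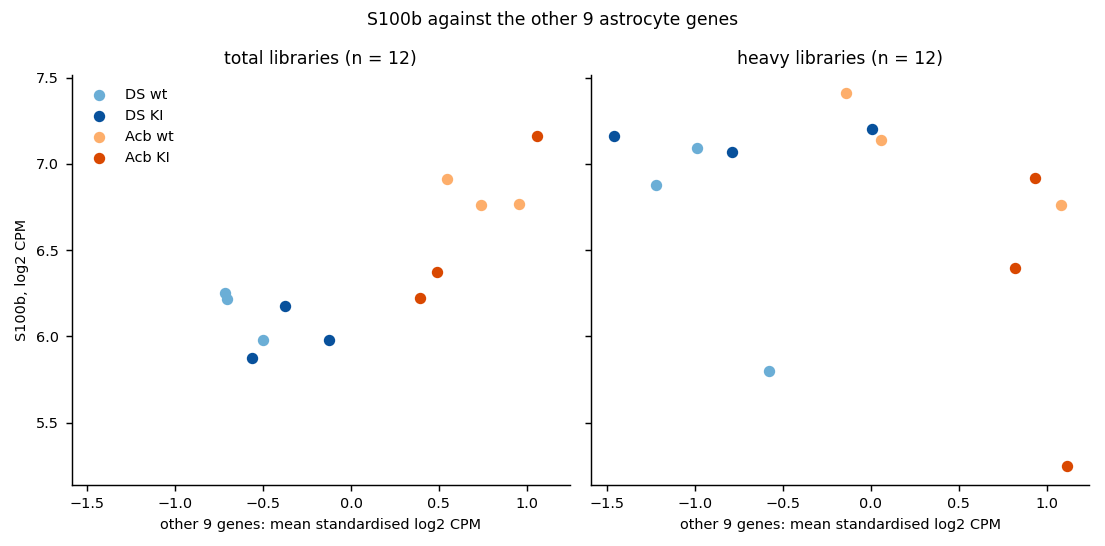
Log2 CPM of S100b (vertical axis) against the mean standardised log2 CPM of the other 9 astrocyte genes (horizontal axis) in the 12 total RNA libraries (left) and the 12 heavy libraries (right), coloured by region and genotype. In total RNA the Acb libraries lie to the right of those of the DS, with S100b at 6.22 to 7.16 against 5.87 to 6.25, and in heavy fractions the lowest S100b value belongs to a knockin Acb library.

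Over the 12 libraries of total RNA every member followed the mean of the others, with Pearson's r of 0.58 (Aldh1l1) to 0.97 (Slc1a3), and over the 12 heavy libraries 8 members did with r of 0.81 to 0.97, Aldh1l1 with 0.55 and S100b with -0.41. These libraries share 2 regions, so that the r hold the difference between regions. Within groups, the SD of log2 CPM in heavy fractions was 0.57 for S100b and 0.52 for Apoe, where the median over all genes was 0.27, and in total RNA it was 0.28 for S100b, 0.11 for Apoe and 0.08 for Clu, with a median of 0.26. The genes whose level over the 24 libraries was most like the mean of the 10 members were Mlc1 (r = 0.96), Kcnj10 (0.95), Ednrb (0.94), Acsl3 (0.94) and Gpr83 (0.94), out of 11969 genes compared, of which 41 had an r over 0.9. Of the 50 genes most like that mean, 12 were in the astrocyte lists, which hold 89 genes where 11969 were compared. These r hold the difference between regions too. Gpr83 had 49.5 ± 4.74 CPM in total RNA of the wild-type Acb and 22.6 ± 1.69 CPM in that of the DS (n = 3 each).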

How the data were processed

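Raw counts of reads per gene, as the authors deposited them, were used for 24079 genes in 24 libraries. Per the labels and the study's methods, poly-A selected, stranded libraries were sequenced as short single reads, aligned to mm10 with TopHat 2.0.13 and Bowtie 2.2.3 and counted with HTSeq 0.6.1p1 in union mode, after alignments with many mismatches had been discarded. Heavy fractions were pooled from those holding several ribosomes per mRNA, so they leave out mRNAs with few ribosomes. Counts were not normalized or filtered by the authors.

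A gene needed 15 reads in sum over the libraries compared, and each comparison was fitted on its own libraries with edgeR 4.0.16 (TMM, quasi-likelihood F test of glmQLFit with legacy settings, R 4.3.3), with Benjamini-Hochberg adjustment over all genes tested and a cutoff of 0.05. The SE of a log2 fold change was taken from its F statistic. DESeq2 1.42.0 was the other tool. Coordinates and lengths came from GENCODE M21 (GRCm38), using for each gene the transcript with the longest coding sequence, with 21209 genes matched by Entrez identifier. Libraries held 9280589 to 34703044 assigned reads, and errors of mean levels are the SD of 3 replicates of pooled mice. Alternatives were DESeq2's size factors, filterByExpr, no filter beyond 1 read, a trend on transcript length removed, the replicate block, all 24 libraries in one fit and each library left out in turn.

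The members and lists were chosen with earlier results of these data known. All 10 members were named; from other lists, up to 3 genes in each direction with the largest change, an adjusted p under 0.05 and at least 50 reads on average; and the 5 genes most alike by Pearson's r. Some genes that this rule names are not reported here. A removed trend on coding length (loess, span 0.5) was added after seeing the data. On simulated data with 200 changed genes (log2 1.5), edgeR found 179 in the heavy to total comparison of the wild-type Acb, 176 between regions, 184 between genotypes in heavy Acb fractions and 145 and 143 in the interactions, with 9 to 12 other calls. Smaller changes, such as the -0.76 to 0.60 of the members between genotypes in heavy Acb fractions, were not simulated, so how often edgeR finds them is not known. Heavy and total RNA were paired as a lysate by the replicate number in their labels. The methods say that a replicate pooled heavy fractions of separate samples, and do not say how its input was pooled. Residuals of these pairs correlated by -0.04 to 0.07.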

Additional observations from a re-analysis of the deposited data

How the results depend on the processing

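Member counts stayed within 1.5 times their main value under most alternatives. The exceptions are these. In the genotype comparison of heavy Acb fractions, fitting all 24 libraries together gave 2 calls in place of 0 (Clu, log2 0.56, and S100b, -0.79). Over 14 alternatives Clu ranged from 0.34 to 0.86 and S100b from -1.16 to -0.064, and only that fit called either. DESeq2 gave 1 in place of 0 in total RNA of the DS (Slc1a2). For genotype by region in heavy fractions, 4 of 20 alternatives gave 1 in place of 0, always S100b. They included the replicate block, no filter beyond 1 read and all 24 libraries in one fit (log2 -1.42, -1.23 and -1.24, edgeR adjusted p = 5.8e-05, 0.015 and 0.033). The last was leaving out knockin Acb replicate 1 (-1.64, edgeR adjusted p = 0.037), and libraries left out gave 0 to 1. Over all 20 alternatives the S100b value ranged from -1.64 to -0.41, with an adjusted p (edgeR or DESeq2) up to 0.49. Leaving out 1 library gave 2 to 6 members between heavy and total RNA in the wild-type Acb (6 without heavy replicate 2), 2 to 4 in the knockin Acb (2 without total replicate 2), and 5 to 8 between regions in knockin heavy fractions (5 without DS replicate 3); the cause was not tested. Slc1a2 reversed between heavy and total RNA when a transcript length trend was removed (0.082 in the wild-type Acb, 0.16 in the wild-type DS, 0.086 in the knockin DS), and S100b between regions in knockin heavy fractions when a coding length trend was removed (0.15).

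Samples of one number in different groups were not paired by their residuals: 1 of 12 pairs of regions and 2 of 12 pairs of genotypes had r over 0.1. With the replicate block, wild-type heavy fractions had 8 members differing between regions in place of 6 (Clu and S100b added), and 2247 genes in place of 1316. Over all genes, the genotype comparison of heavy Acb fractions gave 0 calls by edgeR, 951 by DESeq2, 98 with the block, 549 with no filter and 813 with all libraries fitted together. The log2 SE of S100b in the genotype comparison of heavy Acb fractions was 0.29, that of Aldh1l1 0.25.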
